A study of Mus with 8 samples.

Results

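The glutathione transferases are described here through 10 genes in B16F10, a pigmented melanoma line from the mouse. The 10 are Gstt1, Gstt2, Gstt3, Gsta4, Gstm1, Gstm5, Gsto1, Gstp1, Mgst1 and Mgst3, each read by 1 of the 22206 transcript clusters of the Mouse Clariom S array. They were taken by gene symbol, and the family was chosen by its treated minus control values, since Gstt2 was seen to be higher in the treated arrays and Mgst1 in the authors' deposited comparison table. The treated against control differences of the members, their counts and their intervals are therefore given as a description of size and spread, and nothing is concluded from them as a test. A further 18 measured genes of the family or related to it by name or fold serve as the nearest comparison.

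Glutathione transferases join the thiol of glutathione to reactive, electrophilic compounds, which can then be pumped out of the cell. The soluble enzymes fall into classes named theta, alpha, mu, pi and omega, while the microsomal enzymes Mgst1 and Mgst3 belong to an unrelated family of membrane proteins. Several of these genes are known targets of the stress-responsive factor NRF2, and glutathione chemistry also meets melanin synthesis, where thiols divert dopaquinone towards pheomelanin.

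The 4 control samples were B16F10 cells in medium and the 4 treated samples were B16F10 cells with 2 µM Butyroside D, each group for 48 h and each sample on 1 array. B16F10 is a single established line, and all groups share it. The treatment note of the control samples also names 0.2 µM beside the untreated state, whereas their titles name them controls and their source fields give only medium, so they served as the control group. The labels do not say that the samples were separate cultures, so errors and p-values measure the spread between these arrays, which may be technical. There were 4 close pairs among the arrays, arrays 1 and 2 and arrays 3 and 4 of each group, which correlated at 0.997 to 0.998 within pairs and at 0.986 to 0.993 between pairs. Treated arrays 3 and 4 correlated better with the controls (mean of 0.993) than with treated arrays 1 and 2 (0.986). Treated arrays 1 and 2 correlated with the controls at a mean of 0.987. Each n = 4 below rests on 2 close pairs. The median log2 signal lay between 5.30 and 5.44 in all arrays. The arrays' background level, the median of 23 antigenomic probe sets, lay between 4.69 and 5.17, highest in treated array 1. All 10 melanocyte markers were above it, with control means from 8.82 to 19.02. Of 31 measured markers of fibroblasts, keratinocytes, leukocytes and endothelium, 5 had a group mean above 5.17, the highest of them at 5.86.

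Of the 10 members, 1 was called higher and 0 lower in the treated arrays (limma, Benjamini-Hochberg adjusted p under 0.05 over all transcript clusters), where 0.0766% of all transcript clusters were called higher and 0.0405% lower. The called member was Gstt2, one of the genes the family was chosen for. At an unadjusted p under 0.05 the count was 5 higher and 0 lower, where 9.84% and 8.07% of all transcript clusters passed. In 4 members, Gstt2, Gstt3, Gsto1 and Gstp1, all treated arrays lay above all control arrays, as in 6.98% of all transcript clusters, and in 0 members they lay below (5.93%). Since the members were chosen with this contrast known, nothing is read from these shares. The median change over the 10 was 0.35 on the log2 scale and over all transcript clusters 0.01, and 6 members were positive, 3 negative and 1 (Mgst1) at 0.00. With the close pairs as a random block in limma, 0 members and 0 transcript clusters were called, while 1 member and 4.01% of all transcript clusters had an unadjusted p under 0.05. In a bulk measurement of this kind a change in the share of cells that express a gene and a change in RNA per cell cannot be told apart.

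**Figure D1:**
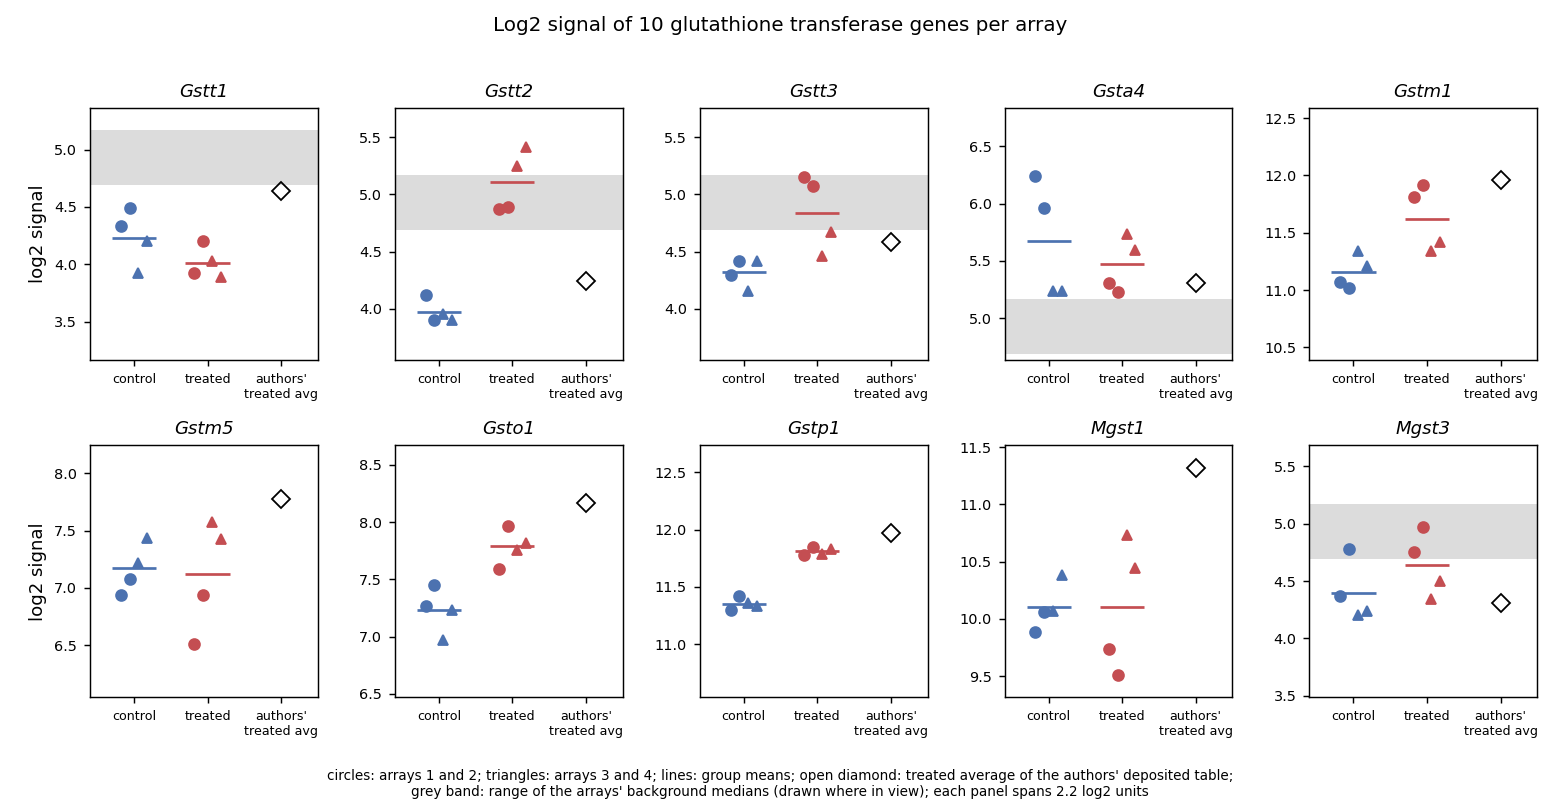
Log2 signal (vertical axis) of each of the 10 genes in the 4 control arrays (blue) and 4 treated arrays (red), with group means as lines, arrays 1 and 2 as circles and arrays 3 and 4 as triangles. The open diamond marks the average for treated cells in the authors' deposited table, and the grey band is the range of background medians, 4.69 to 5.17. Gstp1 shows tight groups that do not overlap, whereas Mgst1 shows treated pairs on either side of the controls and a diamond at 11.32 above all arrays.

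The theta class, which in mammals handles small halogenated compounds among other substrates, was measured at or below the background level. Gstt2 had log2 signals of 4.12, 3.90, 3.96 and 3.90 in control arrays 1 to 4, and of 4.87, 4.89, 5.25 and 5.41 in treated arrays 1 to 4. All treated arrays were higher than all controls, yet only treated arrays 3 and 4 exceeded the background median of their own array, and no control array did. The group means were 3.97 ± 0.10 and 5.11 ± 0.27 (SD, n = 4 each), a difference of 1.14 on the log2 scale that is not turned into a fold because both means lie under 5.17. With each dim transcript cluster left out, Gstt2 itself is not tested.

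Gstt3 stood at 4.30, 4.42, 4.16 and 4.42 in the control arrays and at 5.15, 5.07, 4.46 and 4.67 in the treated arrays. The treated arrays were again all higher, by a narrow gap for array 3, and the background medians moved the same way within the treated group, from 5.17 and 5.07 in arrays 1 and 2 to 4.70 and 4.69 in arrays 3 and 4. The part of that background in the Gstt3 signal was not tested. Gstt1 had control values of 4.33, 4.49, 3.92 and 4.20 and treated values of 3.92, 4.20, 4.03 and 3.89, which overlapped. No array of either group exceeded its background median for Gstt1 or Gstt3. In RefSeq's mouse annotation (assembly GRCm38.p6) Gstt3, Gstt1, Gstt4 and Gstt2 follow each other directly along the chromosome, and Gstt4 had control and treated means of 2.58 ± 0.14 and 3.02 ± 0.23 (SD, n = 4 each), also under background.

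Gsta4, the alpha-class enzyme known for conjugating 4-hydroxynonenal, a product of lipid peroxidation, was just above background in all 8 arrays. Its log2 signals were 6.24, 5.96, 5.24 and 5.24 in the control arrays and 5.31, 5.23, 5.73 and 5.59 in the treated arrays. The groups overlapped, and the control pairs lay further apart, by 0.86, than the group means, which differed by -0.20 ± 0.24 (SE; 95% interval from -0.74 to 0.33).

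The mu class was represented by Gstm1, a major soluble glutathione transferase of the mouse, and Gstm5. Gstm1 had control signals of 11.07, 11.02, 11.34 and 11.21 and treated signals of 11.81, 11.92, 11.34 and 11.42. Treated arrays 1 and 2 were well above every control, while treated array 3 met the highest control. The difference was 0.46 ± 0.16 on the log2 scale (SE, n = 4 per group), or 1.38-fold, with a 95% interval from 1.07 to 1.77-fold over arrays. With means of close pairs the interval on the log2 scale ran from -0.21 to 1.13. Gstm5 had control signals of 6.94, 7.08, 7.22 and 7.44 and treated signals of 6.51, 6.94, 7.58 and 7.43. Its treated arrays lay on both sides of the controls, and the means differed by -0.05 ± 0.23 (SE; 95% interval from -0.57 to 0.46).

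Other mu genes were read from the wider family list. Gstm2, next to Gstm1 in RefSeq's order, is a close relative, and probes of related mu genes can share signal, so their values may not be independent. In the arrays Gstm2 differed by 0.75, Gstm7 (next to Gstm5) by 0.36 and Gstm3 by 0.23, none of them called. Their spread and their level against background are not given here. In the authors' deposited table these 3 genes differed by 0.34, -0.02 and 0.20. Gstm4, on the other side of Gstm1, had means of 6.63 ± 0.14 (control) and 6.98 ± 0.15 (treated; SD, n = 4 each), and Gstm6 had means of 5.85 ± 0.19 and 6.35 ± 0.22. Both had all treated arrays above all controls, and neither passed the threshold (limma adjusted p of 0.222 and 0.150).

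Gsto1, the omega-class enzyme that reduces dehydroascorbate and acts as a thioltransferase, had control signals of 7.27, 7.45, 6.97 and 7.23. Its treated signals were 7.59, 7.97, 7.76 and 7.82, all above the highest control. The difference was 0.56 ± 0.14 (SE, n = 4 per group), or 1.47-fold with a 95% interval from 1.18 to 1.84-fold. With means of close pairs the interval ran from -0.06 to 1.18 on the log2 scale and included 0.

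Gstp1, the pi-class enzyme that is abundant in many tumours and is known to bind the stress kinase JNK, had the smallest SDs of the 10 genes. Its control signals were 11.30, 11.42, 11.36 and 11.33 and its treated signals 11.78, 11.85, 11.79 and 11.83. The groups were separate, with SDs of 0.05 and 0.03, and both treated pairs were higher to the same extent. The difference was 0.46 ± 0.11 (moderated SE, n = 4 per group), or 1.37-fold with a 95% interval from 1.16 to 1.63-fold. Moderation makes this SE larger than the SDs of Gstp1 alone would give. With means of close pairs the interval was from -0.15 to 1.07 on the log2 scale. The pair means were 11.36 and 11.34 for control and 11.82 and 11.81 for treated. That width therefore reflects the moderation and not a disagreement between the pairs of Gstp1. Its neighbour Gstp2, a near copy whose probes may share signal with it, had means of 11.17 ± 0.08 and 11.53 ± 0.17 (SD, n = 4 each), also without overlap (limma adjusted p = 0.200).

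Mgst1, the first of the microsomal enzymes, is a glutathione transferase and peroxidase of the endoplasmic reticulum and the outer mitochondrial membrane. It had control signals of 9.89, 10.06, 10.07 and 10.38. Its treated signals were 9.74 and 9.51 in arrays 1 and 2, below every control, and 10.73 and 10.44 in arrays 3 and 4, above every control. The group means were both 10.10, and the difference was 0.00 ± 0.26 (SE, n = 4 per group; 95% interval from -0.57 to 0.58, and from -0.79 to 0.80 with means of close pairs). Mgst3, which belongs to the same membrane family, had control signals of 4.37, 4.78, 4.20 and 4.24 and treated signals of 4.75, 4.97, 4.34 and 4.50. These overlapped and exceeded the background median of their own array in 0 of 8 arrays.

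**Figure D2:**
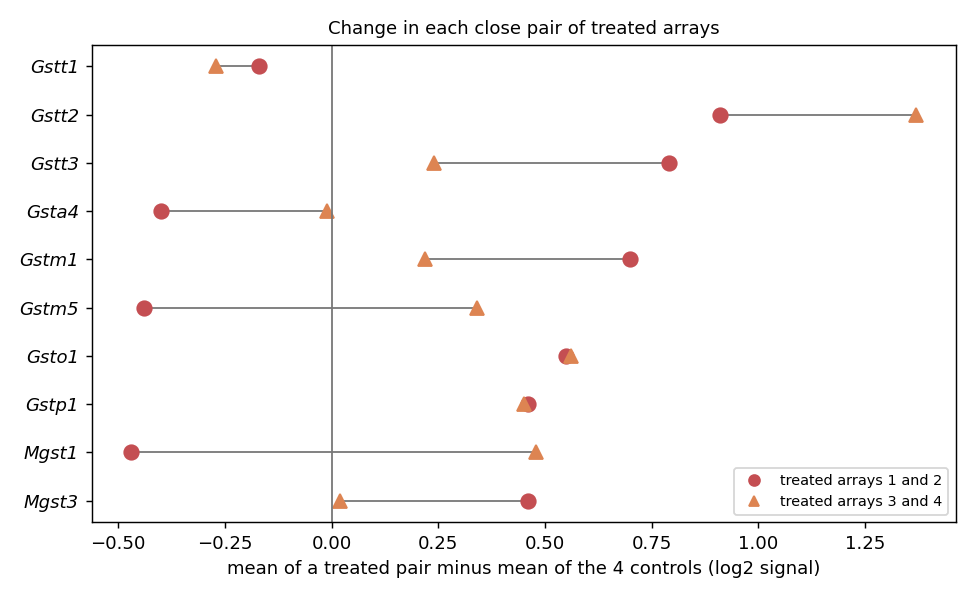
Mean log2 signal of treated arrays 1 and 2 (circles) and of treated arrays 3 and 4 (triangles), each minus the mean of the 4 control arrays, for the 10 genes. Gsto1 (0.55 and 0.56) and Gstp1 (0.46 and 0.45) differ by 0.01 between the pairs, whereas Mgst1 (-0.47 and 0.48) and Gstm5 (-0.44 and 0.34) change sign.

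The plot of changes by treated pair separates the members into those with like values in both pairs and those without. Gsto1 and Gstp1 differed between the treated pairs by 0.01 and -0.01. Gstt2 was higher in both, by 0.91 in the first pair (arrays 1 and 2) and by 1.37 in the second (arrays 3 and 4). Gstt3, Gstm1 and Mgst3 had the higher values in the first pair (0.79, 0.70 and 0.46 against 0.24, 0.22 and 0.02). Gsta4 was at -0.40 in the first and at -0.01 in the second, and Gstt1 was at -0.17 and -0.27. The widest gap was that of Mgst1, 0.96, where the control pairs differed by 0.25. The labels give no reason for the pairs, so these values are a description with no test. Among 10264 other transcript clusters above background, those with the pattern most like Mgst1 over the 8 arrays were Zfp827, Gtf2h1 and Cmbl (Pearson r of 0.989, 0.981 and 0.980). For Gstt2 they were Hacd2, Ism2 and Gng5 (0.994, 0.991 and 0.991). These 8 points come as 4 close pairs, so such r values are easily reached by some of many transcript clusters.

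The second source is the authors' deposited table, which gives an average per group with no values per sample. For all 10 members the control average in the authors' deposited table matched the Tukey biweight mean over the control arrays to within 0.01. The treated average in the authors' deposited table did so for 0 of the 10, and for 2.40% of all transcript clusters. For 8 members the treated average in the authors' deposited table was outside the range of the 4 deposited treated arrays by more than rounding (0.005), 6 above and 2 below, as for 42.0% of all transcript clusters. The distance outside was largest for Gstt2 (0.63, below) and Mgst1 (0.59, above). It was 0.44 for Gstt1 and 0.20 each for Gstm5 and Gsto1, all above. Gstt3 and Gsta4 were the members inside the range. The values below are therefore set beside those of the arrays and not joined with them. Both sources share the control arrays.

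**Figure D3:**
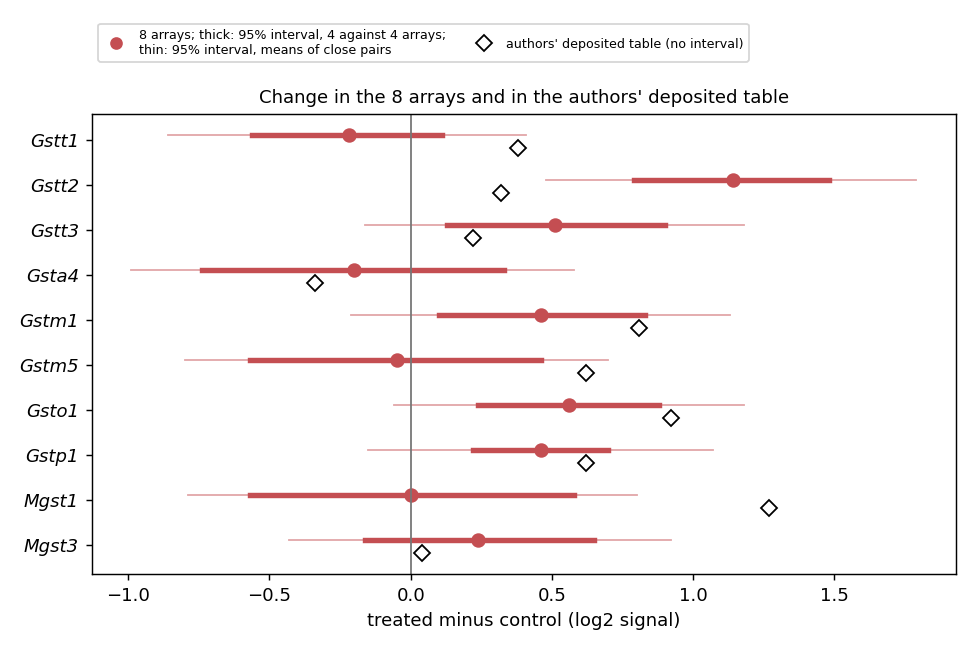
Treated minus control log2 signal of the 10 genes in the 8 arrays (red points; thick bars, 95% intervals over 4 against 4 arrays; thin bars, 95% intervals over means of close pairs) and in the authors' deposited table (open diamonds, no interval). Both kinds of interval use limma's moderated errors. Mgst1 is at 0.00 in the arrays and 1.27 in the authors' deposited table, and Gstt2 is at 1.14 and 0.32.

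Mgst1 and Gsto1 were the 2 members of the authors' deposited table that were higher at an FDR under 0.05 and 0 were lower, where 0.896% of all transcript clusters were higher and 0.666% lower. Mgst1 is the other gene the family was chosen for, and nothing is read from this count. At an unadjusted p under 0.05 the authors' deposited table had 5 members higher and 0 lower, where 7.62% and 8.67% of all transcript clusters were. Its averages in the authors' deposited table were 10.05 for control and 11.32 for treated, a 2.41-fold difference (FDR 0.0216). Its log2 difference was 1.27 in the authors' deposited table, the value that chose it, and 0.00 in the arrays. Gsto1 went from 7.25 to 8.17 in the authors' deposited table, a 1.89-fold difference (FDR 0.0409). Its log2 difference was 0.92 in the authors' deposited table and 0.56 in the arrays, where the 95% interval reached 0.88 over arrays and 1.18 with means of close pairs.

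Gstm1 and Gstp1 came next in the authors' deposited table, at 1.75-fold (FDR 0.0565) and 1.54-fold (FDR 0.0675). Gstm5 was at 7.16 for control and 7.78 for treated in the authors' deposited table, or 1.54-fold (FDR 0.2048). Its log2 difference was 0.62 in the authors' deposited table and -0.05 in the arrays, where the 95% interval reached 0.46 over arrays and 0.70 with means of close pairs. For the theta class the authors' deposited table gave log2 differences of 0.38 (Gstt1), 0.32 (Gstt2) and 0.22 (Gstt3), with all averages under 5.17 and FDR values from 0.3872 to 0.5852. Gsta4, at -0.34 with an FDR of 0.4515, was the member with a negative difference in the authors' deposited table, and Mgst3 was at 0.04.

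Set side by side, 6 members were positive in both sources, namely Gstt2, Gstt3, Gstm1, Gsto1, Gstp1 and Mgst3. Mgst1 was positive in the authors' deposited table and at 0.00 in the arrays. Gsto1, Gstp1 and Gstm1 were the members above background with a positive difference in both treated pairs and in the authors' deposited table. Over all 22206 transcript clusters, 11443 were positive in the arrays and 10136 in the authors' deposited table. Both sources share the control arrays and the family was chosen by these differences, so nothing is read from the shared signs.

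Other genes of the family and of glutathione metabolism were read from lists chosen with earlier results of these data known. Of the 18 other genes of the family or related to it, 0 were called in the arrays (limma). There 7 had an unadjusted p under 0.05, and the median change was 0.04. Over all transcript clusters 17.9% had an unadjusted p under 0.05, the share against which this count and those of the lists below are to be read. The authors' deposited table called 1 of them, Gstcd, a protein with a glutathione transferase-like C-terminal domain, which was lower (log2 change of -0.69, FDR 0.0343). In the arrays Gstcd went from 9.33 ± 0.19 to 8.68 ± 0.31 (SD, n = 4 each), with all treated arrays below all controls (limma adjusted p = 0.122). Hpgds, the sigma-class enzyme that makes prostaglandin D2, had a log2 change of -1.28 in the authors' deposited table (FDR 0.0625) and of -0.17 ± 0.15 (SE) in the arrays. The median of 0.04 is over a mixed list. Its 8 negative genes in the arrays included Hpgds, Gstcd, Ptges (-0.04), Ltc4s (-0.26) and Alox5ap (-0.25), beside Gstk1 (-0.01), Gsto2 (-0.17) and Mgst2 (-0.45). Its 10 positive genes all carry Gst symbols, with Gstm2 (0.75), Gstz1 (0.52) and Gstm6 (0.50) the highest.

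Glutathione supply and turnover showed 0 of 14 genes called in the arrays (2 at an unadjusted p under 0.05, limma) with a median change of 0.12. Chac1, which degrades glutathione, had group means of 7.94 ± 0.22 (control) and 9.38 ± 0.94 (treated; SD, n = 4 each; limma adjusted p = 0.122). Its difference from controls was 2.25 in the first treated pair (arrays 1 and 2) and 0.62 in the second (arrays 3 and 4). Gss, glutathione synthetase, differed by 0.54 ± 0.21 (SE; limma adjusted p = 0.227), also without overlap. Gclm, the modifier subunit of glutamate-cysteine ligase, was the 1 gene of this list called in the authors' deposited table, and its catalytic partner Gclc had a log2 change of 1.20 there, in the authors' deposited table (FDR 0.0988). In the arrays Gclm and Gclc differed by -0.11 ± 0.25 and -0.03 ± 0.25 (SE).

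Among 16 genes of glutathione reduction and peroxidases, 0 were called in the arrays (3 at an unadjusted p under 0.05, limma), with a median of 0.12. The smallest adjusted p was that of Glrx5, a mitochondrial glutaredoxin of iron-sulfur cluster assembly, with group means of 8.17 ± 0.27 (control) and 8.92 ± 0.10 (treated; SD, n = 4 each; limma adjusted p = 0.0778). Its difference was 0.66 and 0.83 in the treated pairs, while in the authors' deposited table it was 0.28 (FDR 0.7583). G6pdx, which supplies NADPH, was called in the authors' deposited table with a log2 change of 1.25 (FDR 0.0379), and in the arrays it differed by 0.87 in the first treated pair and by -0.01 in the second.

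For export and mercapturate processing, the steps that follow conjugation, 0 of 13 genes were called in either source, and 3 had an unadjusted p under 0.05 in the arrays (limma). Acy3, an aminoacylase that acts on mercapturic acids, had group means of 4.90 ± 0.39 (control) and 5.89 ± 0.19 (treated; SD, n = 4 each; limma adjusted p = 0.0778). The control mean of Acy3 was under 5.17, so no fold is given. The difference was 0.98 and 1.00 in the treated pairs and 0.68 in the authors' deposited table (FDR 0.0991). The conjugate pump Abcc4 differed by 0.31 ± 0.22 (SE) in the arrays and by 0.51 in the authors' deposited table.

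NRF2 regulators and other NRF2 targets had 0 of 19 genes called in the arrays (1 at an unadjusted p under 0.05, limma), with a median of 0.21 and 16 positive. The authors' deposited table called 6 of them higher, namely Srxn1, Hmox1, Blvrb, Osgin1, Ftl1 and Ephx1, where 0.896% of all transcript clusters were called higher, and had a median of 0.66 over the list. The treated average in the authors' deposited table lay outside the range of the deposited treated arrays for 15 of the 19, against 42.0% of all transcript clusters. In the arrays Srxn1 and Blvrb differed by -0.19 ± 0.34 and -0.08 ± 0.13 (SE). Ephx1, the microsomal epoxide hydrolase, which shares substrates with glutathione transferases, was at 0.81 in the authors' deposited table (FDR 0.0312) and at 0.28 ± 0.16 (SE) in the arrays. Nfe2l2, which encodes NRF2, had differences of 1.27 in the first treated pair and 0.06 in the second, and its control pairs differed by -0.95. Its partner Mafg had 1.06 and 0.01, with control pairs that differed by -0.03. Hmox1 had 1.40 and -0.65, and its control pairs differed by -0.64. Of the members, Gstt3, Gstm1 and Mgst3 had their higher values in the first treated pair, and Gstt2, Gsta4, Gstm5 and Mgst1 in the second. Gstt1 was below the controls in both pairs, and Gsto1 and Gstp1 were alike in both. Any relation of the members to NRF2 was not tested. Nqo1, a classical NRF2 target, was at 1.17 in the authors' deposited table (FDR 0.0649) and at 0.02 ± 0.16 (SE) in the arrays.

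**Figure D4:**
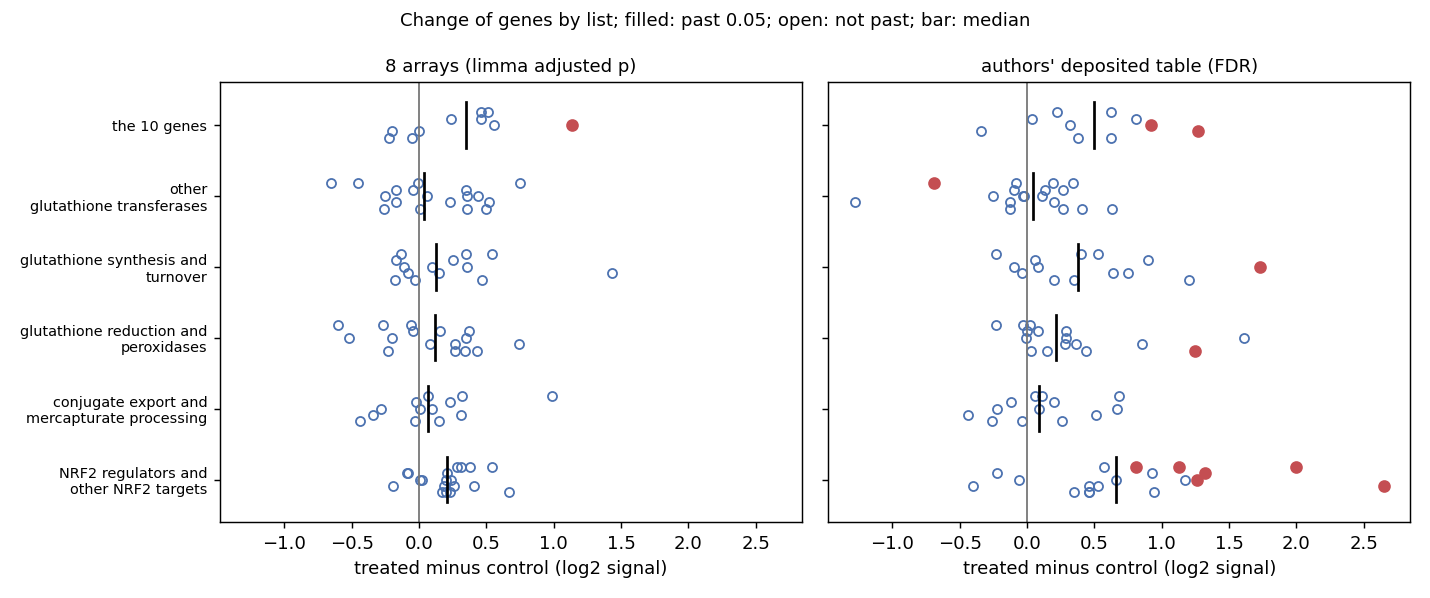
Treated minus control log2 signal (horizontal axis) of each gene, by list, in the 8 arrays (left) and in the authors' deposited table (right). Filled points passed an adjusted p or FDR of 0.05, open points did not, and bars are medians. The medians of the 10 genes were 0.35 and 0.50, and those of the NRF2 list 0.21 and 0.66, while over all transcript clusters they were 0.01 in the arrays and -0.03 in the authors' deposited table.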

How the data were processed

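B16F10 RNA was read on 8 Mouse Clariom S arrays. Transcriptome Analysis Console, RMA and Affymetrix Expression Console are named in the submitters' processing notes without versions or roles, and the genome build is not given in the sources used here. The deposited value table holds log2 signals per array. The authors' deposited comparison table holds log2 averages, a signed fold change (a score, since values below 1 are written as negative inverses, per the file headers) and p-values with FDR from a test the file headers do not name. From 28846 features, 6640 control probe sets were set aside, leaving 22206 transcript clusters, of which 836 carry several symbols and are not named. Gsta1, Glrx3, Kyat1 and Kyat3 have no value of their own here. The number of arrays limits the precision.

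Treated minus control was fitted with limma 3.58.1 in R 4.3.3 (lmFit, eBayes, two-sided, Benjamini-Hochberg over all 22206). The fits were tested on simulated data in which all arrays were independent. Those data held no close pairs, so they cannot show how the fits behave with them. A transcript cluster was taken as dim when both group means were under 5.17. The members, lists, tests and alternatives were chosen with earlier results of these data known. Named genes were all members, from each of 5 lists those past the threshold in either source and up to 4 more with the smallest p in each source, of which some are given by counts only, 5 pigment genes, and for Gstt2 and Mgst1 the 3 transcript clusters of highest r. Some further genes of the list of other transferases and related genes, among them Gstm2, Gstm3 and Gstm7, were named outside this rule, by their differences only. Alternatives left out each array, used the replicate number or the close pairs, rescaled, left out dim transcript clusters or changed the variance prior. Using each treated pair alone was chosen after seeing the data. All 10 symbols are in RefSeq's mouse gene table (GRCm38.p6), used for gene order only.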

Additional observations from a re-analysis of the deposited data

Results flagged for a closer look

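Over the members and named genes, 104 groups of 4 arrays were screened for a lone array with Dixon's gap test, and 3 exceeded its critical value, none of them a member. They were Gstm6 in control array 2, at 6.13 (gap of 0.960 of the range), Blvrb in control array 1, at 7.07 (0.830), and Bach1 in treated array 2, at 10.22 (0.947). By chance about 5% of groups exceed it when arrays are independent, which close pairs need not be.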

How the results depend on the processing

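Leaving out 1 array at a time gave 0 to 5 called transcript clusters in place of 26 (5 without treated array 4, 0 without any other) and 0 called members in place of 1. The replicate block, the random pair block and means of close pairs each gave 0 transcript clusters and 0 members, with 4320, 890 and 571 at an unadjusted p under 0.05. Same-numbered arrays deviated together only weakly (correlations of 0.0696 to 0.0839 across transcript clusters), and arrays correlated best with their close partner, so replicate numbers were not taken as pairs of cultures. Centring each array on its median gave 48 transcript clusters (40 higher, 8 lower, against 17 and 9) and kept Gstt2, quantile normalization again gave 0 members, and leaving out dim transcript clusters gave 61 transcript clusters and 0 members, since Gstt2 is dim. With treated arrays 1 and 2 only, 5502 transcript clusters and 4 members (Gstt2, Gstt3, Gstm1 and Gstp1) were called, and with treated arrays 3 and 4 only 881 and 1 (Gstt2). These fits, like the reported one, do not account for close pairs, and the cause of the higher counts was not tested. With arrays 1 and 2 they called 7 of the other genes of the family or related to it and 6 genes of synthesis and turnover. They also called 7 of reduction, 3 of export and 4 of the NRF2 list. With arrays 3 and 4 these counts were 0, 1, 1, 0 and 1. These lists had 0 calls in the main setting. For the authors' deposited table, 5 members had an unadjusted p under 0.05, and 4 had an adjusted p under 0.05 with dim transcript clusters left out, in place of 2. The share of all transcript clusters past 0.05 in that last setting is not given here, so nothing is read from the rise. Of 166 recomputed changes of members in the arrays, 155 moved by less than 1 SD between arrays. Most could not move further, so the count is no evidence of stability. The block, pair-mean, dim and variance-prior settings leave each difference as it was, and leaving out 1 of 4 arrays shifts a mean little. Those that moved came from a treated pair alone or, for Gstp1, from quantile normalization again. Signal over background limits the theta genes and Mgst3.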
